A study of Mus musculus with 12 samples.

Results

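Zfp genes encode zinc finger proteins, a large family in which short loops held by a zinc ion bind DNA or RNA. In these data they were the 263 genes with a symbol of the form *Zfp* and a number, present in both the mRNA and the ribosome footprinting (RPF) table, out of 10080 genes in both; *Zfp598*, a ribosome quality control factor, was left out of the group. The symbol and a value in both assays decided membership, and earlier results of these data were known when the group was set. The cells were clones of Ba/F3, a mouse lymphoid line that grows on interleukin-3. Each clone carried human *RPL10* on a retroviral vector, either *WT* (clones 28, 29 and 36) or with the R98S mutation found in T-cell leukemia (clones 11, 13 and 35), and in both genotypes an shRNA knocked down endogenous *Rpl10*. Every culture grew from a single cell and was kept for its strong knockdown, so that clone and genotype are tied, and each clone gave 1 footprinting and 1 mRNA library after 5 min in cycloheximide at 100 µg/ml. Values are gene counts divided by the library's size factor (normalized counts), and translation efficiency (TE) is the ratio of footprints to mRNA in the same clone.

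Most members carry C2H2 fingers, each a pair of cysteines and a pair of histidines around 1 zinc ion, strung together by a short linker. Many also begin with a KRAB box, which recruits the corepressor Trim28 and, through it, the histone methyltransferase Setdb1 to silence transposable elements. These genes arose by repeated local duplication and stand in clusters on the chromosomes. A few members work on RNA: Zfp36 and its relatives have CCCH fingers and speed the decay of mRNAs with AU-rich elements.

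In the GENCODE annotation of the GRCm38 (mm10) build, 262 members were found by symbol, on 20 chromosomes, with 70 on chromosome 7, 35 on chromosome 17 and 29 on chromosome 13. Their translated coding sequences held a median of 10 C2H2 matches (quartiles 7 and 14), with the highest number, 37, in *Zfp142*. A KRAB pattern was found in 144 members, 96 had 3 or more fingers without it, and 22 had fewer. The repeats also leave the same bases in many places. One such window codes for a linker, with the linker codons in capitals, and lies in 7 members and at 18 places of the genome. In *Zfp119a* it stands at chr17:55865890-55865919, minus strand. A second window codes for part of the KRAB box, with the codons of a conserved stretch in capitals, and lies in 6 members and at 8 places. In *Zfp101* it stands at chr17:33386776-33386805, minus strand.
Linker window: aaagaattcatACTGGAGAGAAACCCtatg
KRAB box window: gtgaccTTTGAGGATGTGGCTgtgaacttc
A read inside such a window cannot be assigned to 1 gene. Over all 30-base windows of their coding exons, members had a median of 98.9% found at 1 place in the genome, against 100.0% for all genes, and 77 of 262 members (29.4%) fell under 90%, against 15.9% of all genes. Reads of mapping quality under 10 had been removed before counting, so values of those members are uncertain.

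The mRNA libraries held 6617457 (WT clone 28) to 23136595 reads and the RPF libraries 3477723 (R98S clone 35) to 10883086. *Rpl10*, the gene that the shRNA targets, read 2905, 1449 and 2355 normalized mRNA counts in the R98S clones and 4501, 2345 and 2230.2 in the WT clones, with overlapping groups; whether reads of human *RPL10* were counted there was not tested. Of 12 markers chosen for the line, 6 reached a mean of 10, with the interleukin-3 receptor genes *Csf2rb* and *Csf2rb2* among them, while *Kit* and *Pax5* were at 0 in all 6 mRNA libraries. The 10 markers chosen for other cell types summed to 298 to 1105 normalized counts in the R98S clones and 103 to 221 in the WT clones, mostly from the mast cell protease *Cpa3* (561 ± 277 against 80.8 ± 83.4, SD, n = 3); 7 of the 10 stayed under a mean of 10. Their part in the results below was not tested. In bulk samples, fewer cells of a type and less RNA per cell cannot be told apart.

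Zfp genes were expressed at low levels. Per kb of annotated exon, the median mRNA level over the WT clones was 70.9 normalized counts for the 262 members with lengths and 166 for all 9731 genes with lengths. Per kb of counted coding sequence, the median footprint level was 31.5 against 161. The highest mRNA levels per kb belonged to *Zfp36l2*, the mRNA decay factor, with 2586 ± 505 (SD, n = 3), *Zfp91*, an E3 ubiquitin ligase, with 957 ± 177, *Zfp207*, a Bub3-binding protein of the mitotic spindle, with 756 ± 91.3, and *Zfp706* with 635 ± 111. Among the last 3, neighbours in this order did not differ beyond 1 SD of each, and no 30-base coding window of *Zfp706* was found at a single place in the genome. The lowest, *Zfp946*, *Zfp82*, *Zfp90* and *Zfp78*, all with a KRAB pattern, had 0.334 to 1.96 per kb. In 70 members at least 1 footprinting library held fewer than 10 reads.

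Zfp genes had fewer footprints for their mRNA than the median gene. For the 201 members that reached 10 normalized counts in each of the 12 libraries, the median log2 TE per length differed from that of all 8782 genes in WT clones 28, 29 and 36 by -1.10, -0.89 and -0.88. In the R98S clones the differences were -0.99, -0.92 and -0.77, inside the range of the WT clones in 2 of 3. In the WT clones, 158 of the 201 members (78.6%) were under the all-gene median. The other C2H2 families (*Zbtb*, *Zkscan*, *Zscan*, *Znf* and *Klf*) lay between, with a mean difference of -0.49 ± 0.06 (SD over 3 WT clones, 55 genes) against -0.96 ± 0.12 for Zfp genes. These are descriptions of gene sets, with no test, and mRNA was counted over all exons of all isoforms while footprints were counted only in coding sequence.

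The ratio per length was lower in members with more fingers. In the WT clones, the mean difference from the all-gene median was -0.16 ± 0.17 (log2, SD, n = 3 clones) for the 21 members with 0 to 2 fingers and -0.65 ± 0.20 for the 47 with 3 to 7. It was -1.19 ± 0.16 for the 76 with 8 to 12 fingers and -1.25 ± 0.16 for the 57 with 13 or more, which differ from each other by less than their spread. Members with a KRAB pattern were at -1.29 ± 0.18 and those with 3 or more fingers and no KRAB pattern at -0.81 ± 0.086. These classes also differ in uniqueness and depth. Under 90% unique windows were 46.5% of the 144 members with the pattern and 6.25% of the 96 without it. The filter for TE kept 94 and 87 of them. The part of uniqueness and depth in the difference between these classes was not tested. Across the 201 members, Spearman's rho between finger number and log2 TE per length was -0.31, and -0.29 over the 159 members with at least 90% unique windows; both measures rest on the same annotated coding sequence. Uniqueness moved with the ratio as well: members with at least 90% unique windows were at -0.88 ± 0.14 and those under 90% at -1.24 ± 0.18.

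**Figure D1:**
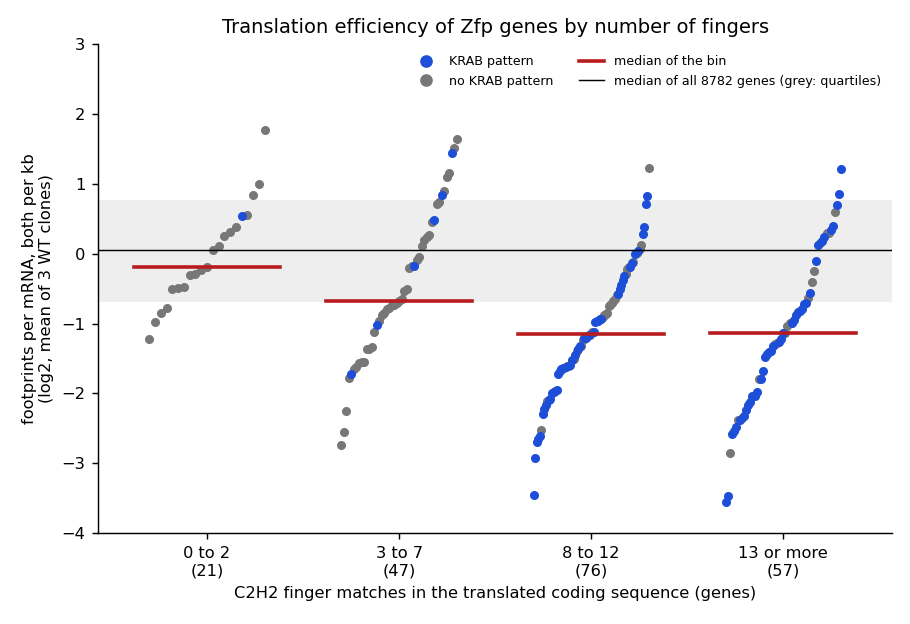
Log2 ratio of footprints to mRNA, both per kb, as the mean of 3 WT clones, for 201 Zfp genes in 4 bins of C2H2 finger number; points are genes (blue with a KRAB pattern), red lines bin medians, the black line and grey band the median and quartiles of all 8782 genes. The medians of the bins with 8 to 12 and 13 or more fingers lie below the lower quartile of all genes.

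At the top of this order stood *Zfp36l1*, a CCCH protein of mRNA decay, with a log2 TE per length of 2.23, 1.60 and 1.47 in WT clones 28, 29 and 36. *Zfp444* (1.51, 1.76 and 1.65), *Zfp277* (1.92, 1.23 and 1.39) and *Zfp398* (2.20, 0.99 and 1.15) followed and were not apart from it beyond their spread. At the bottom stood *Zfp40* (-3.76, -2.95 and -3.97), *Zfp51* (-3.32, -3.39 and -3.70), *Zfp605* (-4.34, -2.67 and -3.36) and *Zfp938* (-3.26, -2.50 and -3.02), which overlap each other. All 4 have a KRAB pattern and 10 to 20 fingers. The first finger of each that follows a canonical linker is shown to make the repeat visible, 84 bases 5′ to 3′ on the coding strand, with the linker codons in capitals (GRCm38). *Zfp40* is read from chr17:23176205-23176288 (minus strand), *Zfp51* from chr17:21463917-21464000 (plus strand), *Zfp605* from chr5:110128497-110128580 (plus strand) and *Zfp938* from chr10:82225750-82225833 (minus strand).
Zfp40: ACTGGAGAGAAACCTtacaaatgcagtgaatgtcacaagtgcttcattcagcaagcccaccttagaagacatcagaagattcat
Zfp51: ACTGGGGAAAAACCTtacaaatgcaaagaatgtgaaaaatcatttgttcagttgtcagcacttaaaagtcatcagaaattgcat
Zfp605: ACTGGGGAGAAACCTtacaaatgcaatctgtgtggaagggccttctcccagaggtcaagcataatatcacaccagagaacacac
Zfp938: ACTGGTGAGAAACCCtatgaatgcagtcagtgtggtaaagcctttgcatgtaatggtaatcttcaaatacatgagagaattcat
Aligned without gaps, these stretches were identical at 50 to 60 of 84 bases from pair to pair. Every coding window of *Zfp605* was unique (100%), while *Zfp51* had 83.8% unique windows.

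Few members were called in mRNA between genotypes. The share called higher in R98S clones was near that of all genes, and the share called lower was smaller. Of 262 members tested with limma (mean of at least 10 normalized counts), 7 were higher and 1 was lower in R98S clones at an adjusted p under 0.1 over all 11344 genes. That is 2.67% and 0.382% of the members, where 3.03% and 3.91% of all genes were called. DESeq2 on recovered reads called 14 members higher and 3 lower, and limma with library weights 54 and 14. The shares of all genes called under these alternatives are not given here, so the counts cannot be set against them. Before any threshold, 172 of the 262 members (65.6%) had a higher mean in R98S clones, beside 51.1% of all genes in both tables. The median change of the members was 0.13 (log2), beside 0.0093 for those genes. All 3 R98S values lay above all 3 WT values in 40 members (15.3%) and below them in 14 (5.34%), beside 11.9% and 11.6% of all genes.

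The shift of the whole group was not shared by the R98S clones. Relative to each gene's mean over the 6 clones, the median member deviated by 0.13 and 0.15 (log2) in R98S clones 11 and 13 but by -0.09 in R98S clone 35. In WT clones 28, 29 and 36 it deviated by -0.12, -0.012 and -0.075, so that R98S clone 35 lay among the WT clones. In footprints the deviations were 0.16, 0.16 and -0.011 in the R98S clones and -0.10, 0.066 and -0.12 in the WT clones, so that WT clone 29 lay above R98S clone 35. Without R98S clone 35, 18 members were called higher in mRNA and 15 in footprints. Without R98S clone 11 or without R98S clone 13, 2 were called higher in mRNA and 1 in footprints. Without WT clone 28, 29 or 36, 11, 3 and 3 were called higher in mRNA and 3, 3 and 1 in footprints. Calls of members lower in R98S clones numbered 4 in mRNA without WT clone 28. In footprints they numbered 4 without R98S clone 35, 3 without WT clone 29 and 0 without any 1 of the other clones. How many of all genes were called without each clone is not given here, so whether these counts are particular to members was not tested.

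**Figure D2:**
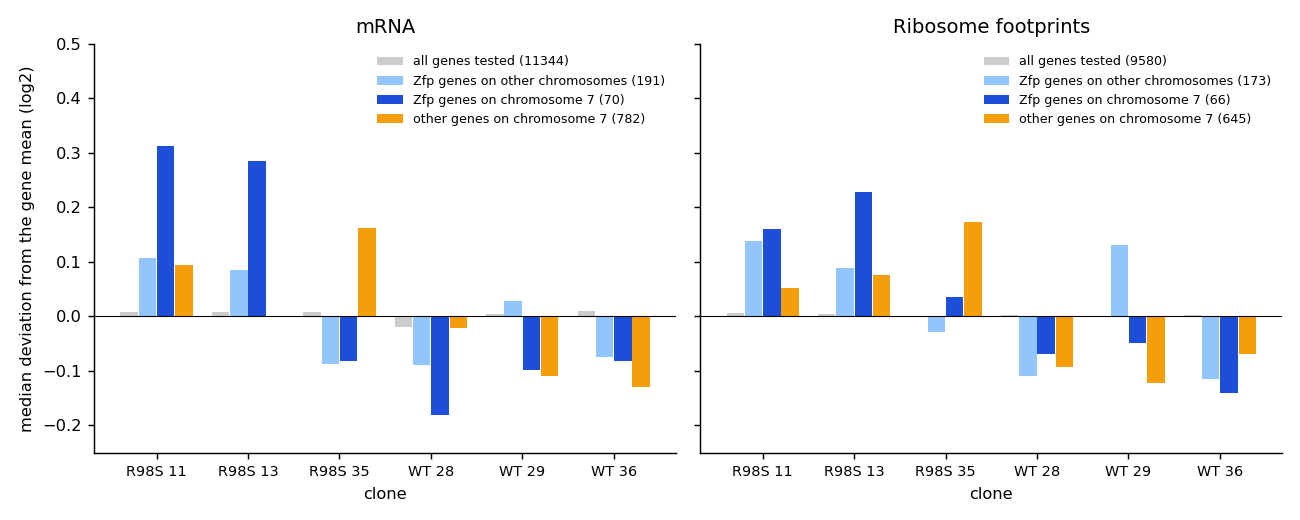
Median deviation of a gene from its own mean over the 6 clones (log2), for each clone, in mRNA (left) and footprints (right); bars are all genes tested, Zfp genes on chromosome 7 and on other chromosomes, and the other genes of chromosome 7, with numbers of genes in the key. In mRNA, Zfp genes lie above 0 in R98S clones 11 and 13 and below 0 in R98S clone 35, whereas the other genes of chromosome 7 are highest in clone 35.

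The largest rise was that of *Zfp518b* (chromosome 5, 38668484 to 38684826), whose human counterpart binds the histone methyltransferase G9a. Its mRNA read 469, 489.7 and 456 normalized counts for R98S clones 11, 13 and 35, against 150.4, 167 and 247 for WT clones 28, 29 and 36, and the groups did not overlap. The means were 472 ± 16.8 and 188 ± 51.7 (SD, n = 3), a change of 1.36 ± 0.24 (log2, SE, limma adjusted p = 0.0145). Its footprints read 121, 116 and 80.6 in the R98S clones and 28.7, 29.2 and 46.1 in the WT clones, a change of 1.60 ± 0.30 (log2, SE, limma adjusted p = 0.0179). It passed the threshold under all 14 alternatives in both assays.

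*Zfp207* (chromosome 11, 80383279 to 80405733), which loads Bub3 onto kinetochores and binds microtubules, was the most abundant of the called members. Its mRNA read 10287, 11611 and 8338 in the R98S clones and 4775, 4598 and 5728 in the WT clones, with the lowest R98S value above the highest WT value. The change was 0.99 ± 0.18 (log2, SE, limma adjusted p = 0.0172), called under all 14 alternatives. Its footprints read 2307, 2338 and 1935 in the R98S clones and 1664, 942 and 1320.4 in the WT clones, a change of 0.78 ± 0.22 (log2, SE, limma adjusted p = 0.0758), and again every R98S clone was above every WT clone. This footprint call did not pass without R98S clone 11 or 13, or without WT clone 29 or 36 (limma adjusted p = 0.147 to 0.262). It was also lost with chromosome medians removed (limma adjusted p = 0.121).

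*Zfp553* (chromosome 7, 127233061 to 127238179) was the third member higher in both assays. Its mRNA read 552, 532 and 347 in the R98S clones and 215, 248 and 279.8 in the WT clones and its footprints 127, 166 and 109 in the R98S clones and 57.3, 75 and 80.4 in the WT clones. The groups were apart in both, by 0.92 ± 0.24 (log2, SE, limma adjusted p = 0.075) for mRNA and 0.90 ± 0.26 (log2, SE, limma adjusted p = 0.0789) for footprints. Its annotated span overlaps *Sept1* on the other strand, and reads of such a pair cannot be told apart if strand was not used in counting. The mRNA call did not pass without R98S clone 11 or 13, or without WT clone 28, 29 or 36 (limma adjusted p = 0.102 to 0.3). The footprint call did not pass without R98S clone 11 or 13, or without WT clone 28, 29 or 36 (limma adjusted p = 0.107 to 0.3).

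The only member lower in both assays was *Zfp560* (chromosome 9, 20345136 to 20385177), a KRAB zinc finger gene with 15 fingers. Its mRNA read 289, 308 and 291 in the R98S clones and 1125, 551 and 784 in the WT clones; the R98S clones lay close together and the WT clones, all above them, were spread widely. The change was -1.41 ± 0.26 (log2, SE, limma adjusted p = 0.0178), called under all 14 alternatives. Its footprints read 33, 22.6 and 53.7 in the R98S clones and 89.8, 59.3 and 108 in the WT clones, a change of -1.26 ± 0.36 (log2, SE, limma adjusted p = 0.0845). The footprint call did not pass without R98S clone 11 or 13, or without WT clone 28 or 36 (limma adjusted p = 0.196 to 0.289). It was also lost with chromosome medians removed and with a mean of at least 50 (limma adjusted p = 0.105 and 0.104).

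The promoters of these 4 members, called in both assays, are shown for their sequence context, from 250 bases before to 50 after the start of transcription in RefSeq (GRCm38), 5′ to 3′, with motif matches in capitals. They were searched on both strands for CCAAT, for the GC box GGGCGG and for TATAAA, where overlapping matches run together. *Zfp207* lies at chr11:80383029-80383328 (plus strand), *Zfp518b* at chr5:38684777-38685076 (minus strand), *Zfp553* at chr7:127232811-127233110 (plus strand) and *Zfp560* at chr9:20385109-20385408 (minus strand).
Zfp207: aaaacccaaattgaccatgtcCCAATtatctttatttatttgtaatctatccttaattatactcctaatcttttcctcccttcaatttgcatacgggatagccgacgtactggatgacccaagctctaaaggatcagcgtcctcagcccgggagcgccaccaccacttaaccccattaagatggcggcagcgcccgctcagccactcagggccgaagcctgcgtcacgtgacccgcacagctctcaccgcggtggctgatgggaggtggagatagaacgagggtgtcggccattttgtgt
Zfp518b: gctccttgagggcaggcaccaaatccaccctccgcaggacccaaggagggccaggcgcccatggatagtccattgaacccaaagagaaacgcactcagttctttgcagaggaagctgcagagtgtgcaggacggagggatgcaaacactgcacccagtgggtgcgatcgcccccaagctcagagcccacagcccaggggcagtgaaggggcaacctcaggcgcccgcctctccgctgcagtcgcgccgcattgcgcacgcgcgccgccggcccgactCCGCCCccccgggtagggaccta
Zfp553: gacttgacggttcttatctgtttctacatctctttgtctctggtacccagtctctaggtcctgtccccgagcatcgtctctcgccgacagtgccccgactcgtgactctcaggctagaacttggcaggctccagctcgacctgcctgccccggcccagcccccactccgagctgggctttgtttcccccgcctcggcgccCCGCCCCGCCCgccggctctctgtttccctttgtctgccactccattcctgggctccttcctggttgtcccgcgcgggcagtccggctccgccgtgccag
Zfp560: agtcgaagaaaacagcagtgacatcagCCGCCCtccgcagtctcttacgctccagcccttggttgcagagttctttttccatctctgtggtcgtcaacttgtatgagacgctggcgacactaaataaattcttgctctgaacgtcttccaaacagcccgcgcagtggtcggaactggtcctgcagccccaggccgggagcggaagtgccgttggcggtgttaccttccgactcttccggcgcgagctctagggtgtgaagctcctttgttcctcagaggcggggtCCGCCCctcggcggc
A GC box match stood in *Zfp518b* (1), *Zfp553* (2) and *Zfp560* (2), and a CCAAT match in *Zfp207* (1). Among the 222 members with an entry, 49.1% had a GC box, 48.6% CCAAT and 6.31% TATAAA, and among 27025 promoters, 1 for each symbol, 35.9%, 37.9% and 14.2%. The 4 promoters held 17 to 23 CpG dinucleotides, beside a median of 15 for members and 7 for those 27025. That set was not limited to genes measured here, whereas members had values in both assays, so the 2 sets are not alike.

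A further 4 members were higher in mRNA alone. *Zfp629* read 836, 719.9 and 391 in the R98S clones and 341, 216 and 225 in the WT clones, a change of 1.27 ± 0.31 (log2, SE, limma adjusted p = 0.0582). *Zfp764* read 236, 232 and 150.4 in the R98S clones and 88.6, 108 and 100.3 in the WT clones, a change of 1.03 ± 0.27 (log2, SE, limma adjusted p = 0.075), though only 43.8% of its coding windows are unique. *Zfp446* read 464, 507 and 312 in the R98S clones and 218, 228 and 230.4 in the WT clones, a change of 0.89 ± 0.24 (log2, SE, limma adjusted p = 0.0756). In all 3 genes the groups were apart and R98S clone 35 was the lowest of the R98S clones. *Zfp292*, a large nuclear protein with 15 fingers, was the seventh called and is named beyond the rule of 6. It read 5071, 4526 and 3557 in the R98S clones and 2167, 2436 and 2635 in the WT clones, a change of 0.85 ± 0.18 (log2, SE, limma adjusted p = 0.0343); a noncoding gene overlaps it on the other strand. The call of *Zfp629* did not pass without R98S clone 11 or 13, or without WT clone 29 or 36 (limma adjusted p = 0.135 to 0.228). The call of *Zfp764* did not pass without R98S clone 11 or 13, or without WT clone 29 or 36 (limma adjusted p = 0.115 to 0.3). It was also lost with no filter on low values (limma adjusted p = 0.115). The call of *Zfp446* did not pass without R98S clone 11 or 13, or without WT clone 29 or 36 (limma adjusted p = 0.136 to 0.299). The call of *Zfp292* did not pass without R98S clone 11 or 13 (limma adjusted p = 0.14 to 0.17). The footprint changes of these 4 genes were 1.14, 0.44, 0.56 and 0.51 (limma adjusted p = 0.164, 0.476, 0.242 and 0.196).

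After *Zfp560*, the members with the smallest unadjusted p among those with less mRNA in R98S clones were *Zfp36l2* and *Zfp385a*, a p53 cofactor. Neither passed with limma. DESeq2 called both (adjusted p = 0.084 and 0.068), as did limma with library weights (0.0375 and 0.00729) and limma without WT clone 28 (0.0947 and 0.0301). *Zfp36l2* read 7351, 5983 and 4096 in the R98S clones and 7382, 9051 and 10948 in the WT clones, a difference of -0.67 ± 0.24 (log2, SE, limma adjusted p = 0.17), and *Zfp385a* read 709, 797 and 734 in the R98S clones and 835, 1333 and 1261 in the WT clones, a difference of -0.59 ± 0.21 (log2, SE, limma adjusted p = 0.177). In both genes the highest R98S clone lay just under the lowest WT clone.

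Of 240 members tested in footprints, 7 were higher and 2 lower in R98S clones (2.92% and 0.833%), beside 3.13% and 4.62% of all 9580 genes. DESeq2 called 11 and 4, and limma with library weights 33 and 9, again without shares of all genes to set beside them. The median change was 0.13 (log2) for members and 0.014 for all genes. The groups did not overlap in 34 members with R98S above (14.2%) and 12 with R98S below (5%), beside 12.5% and 12.8% of all genes. The filter on low values left out 23 members, 19 of them with a KRAB pattern.

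Besides *Zfp518b*, *Zfp207* and *Zfp553*, footprints were higher for *Zfp592*, a partner of the chromatin reader Zmynd8, with 414, 499 and 366 in the R98S clones and 246, 243 and 232 in the WT clones, a change of 0.81 ± 0.19 (log2, SE, limma adjusted p = 0.0406). *Zfp707* read 103, 96.4 and 128 in the R98S clones and 59.2, 64.5 and 61.9 in the WT clones, a change of 0.80 ± 0.24 (log2, SE, limma adjusted p = 0.0903). *Zfp771* read 179.7, 197 and 301 in the R98S clones and 114, 130.1 and 137 in the WT clones, a change of 0.79 ± 0.24 (log2, SE, limma adjusted p = 0.0956). The R98S clones were above all WT clones in these 3 genes, most narrowly in *Zfp771*. *Zfp933*, a KRAB zinc finger gene with few footprints, read 28.2, 27.7 and 31.9 in the R98S clones and 6.69, 17.7 and 9.22 in the WT clones, a change of 1.41 ± 0.43 (log2, SE, limma adjusted p = 0.0988). *Zfp933* is one of the genes that carry the linker window shown above, and fewer than 90% of its coding windows are unique. The mRNA of *Zfp592*, *Zfp707*, *Zfp771* and *Zfp933* differed by 0.48, 0.23, 0.83 and 0.59 (limma adjusted p = 0.184, 0.724, 0.105 and 0.277). The call of *Zfp592* did not pass without R98S clone 11 or 13, or without WT clone 36 (limma adjusted p = 0.121 to 0.187). The call of *Zfp707* did not pass without R98S clone 11, 13 or 35, or without WT clone 28, 29 or 36 (limma adjusted p = 0.121 to 0.224). It was also lost with a mean of at least 50 (limma adjusted p = 0.106). The call of *Zfp771* did not pass without R98S clone 11, 13 or 35, or without WT clone 28, 29 or 36 (limma adjusted p = 0.141 to 0.216). It was also lost with chromosome medians removed (limma adjusted p = 0.173) and with no filter (0.104). The call of *Zfp933* did not pass without R98S clone 11, 13 or 35, or without WT clone 28 or 36 (limma adjusted p = 0.136 to 0.262). It was also lost with DESeq2 (adjusted p = 0.114), with chromosome medians removed (0.146) and with a pseudocount of 0.5 (0.101).

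The members lower in footprints were *Zfp560* and *Zfp280c*. Footprints of *Zfp280c* (chromosome X) read 118, 96.4 and 85.6 in the R98S clones and 177, 169 and 184 in the WT clones, a change of -0.83 ± 0.22 (log2, SE, limma adjusted p = 0.0605), and its groups were apart. This call did not pass without R98S clone 11 or 13, or without WT clone 28 or 36 (limma adjusted p = 0.106 to 0.204). Its mRNA read 1488, 1215 and 1057 in the R98S clones and 1434, 1212 and 1294 in the WT clones, which overlapped, with a difference of -0.078 (limma adjusted p = 0.874). *Zfp414* came next by p-value and did not pass with limma, though it did with DESeq2 (adjusted p = 0.0914) and with library weights (0.0638), at 124, 119.9 and 89 in the R98S clones and 195, 169.7 and 175 in the WT clones and a difference of -0.70 ± 0.22 (log2, SE, limma adjusted p = 0.105).

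**Figure D3:**
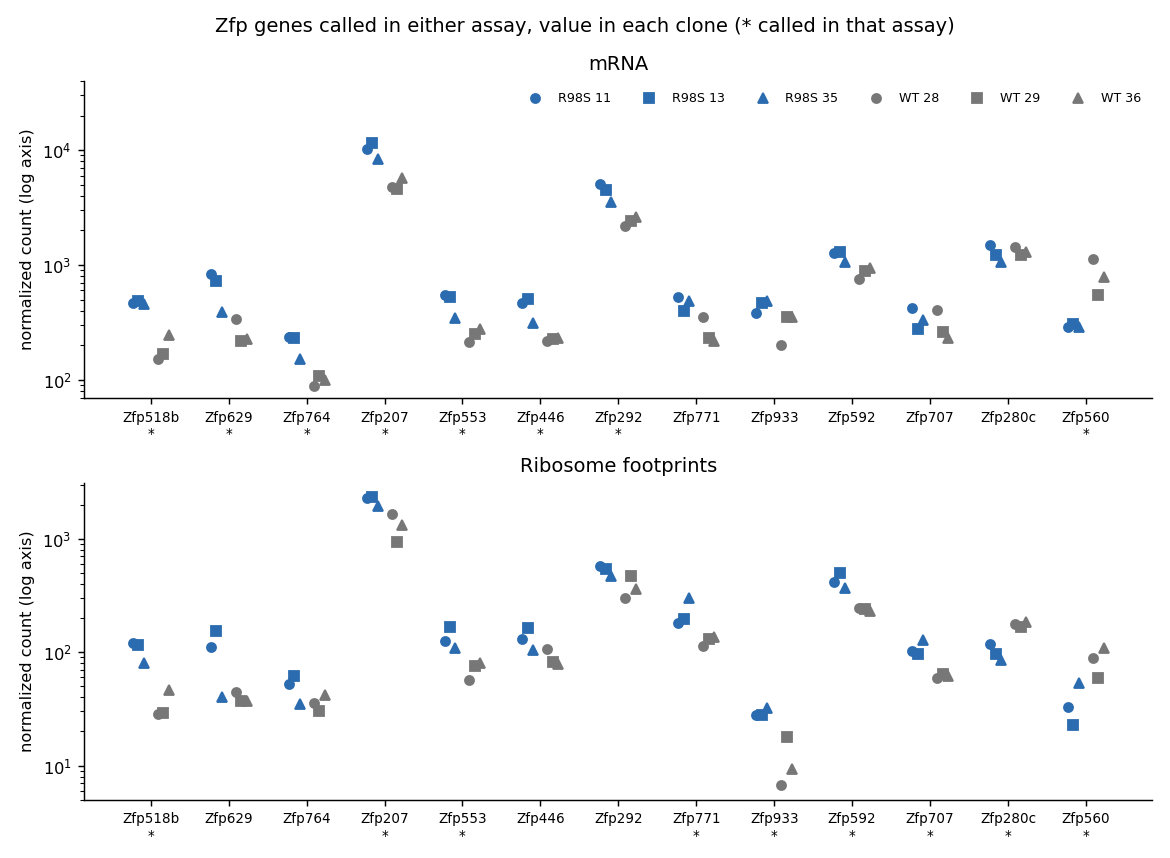
Normalized counts of mRNA (top) and footprints (bottom) on log axes for the 13 Zfp genes called in either assay, 1 point per clone, R98S clones in blue and WT clones in grey; stars mark the assay in which limma called the gene. *Zfp207* and *Zfp292* have the highest mRNA values, and *Zfp560* and *Zfp280c* are the genes with R98S footprints below WT.

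Changes in mRNA and footprints went together. Over the 240 members tested in both assays, Pearson's r between them was 0.63 and Spearman's rho 0.61, across genes that share the same clones, and 174 members (72.5%) had the same sign in both, beside 72.6% of all genes. Over all 9501 genes tested in both assays, Pearson's r was 0.82 and Spearman's rho 0.67, both above the values for members. All 8 members called in mRNA had the same sign in footprints.

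**Figure D4:**
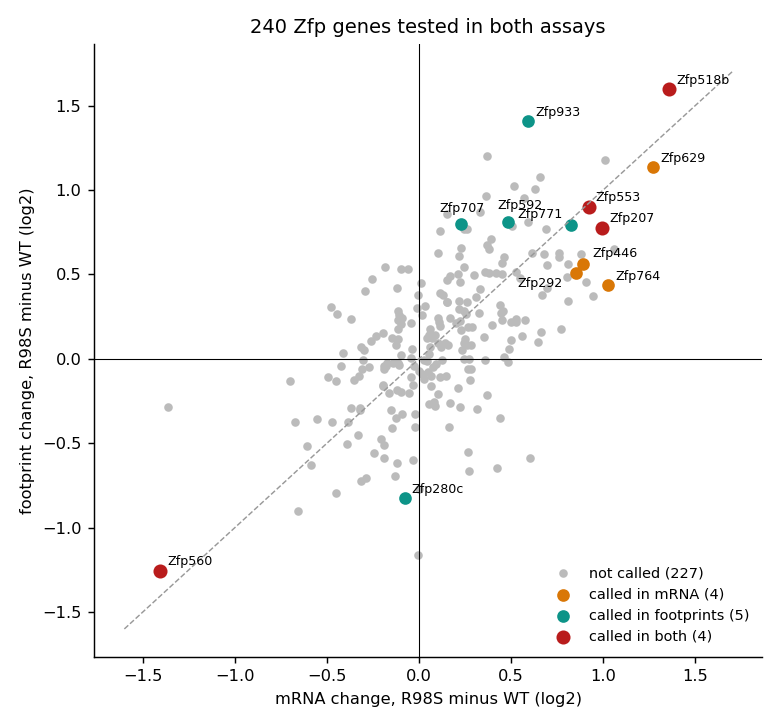
Change in footprints against change in mRNA (log2, R98S minus WT) for 240 Zfp genes, with the dashed line marking equal changes; colours mark genes called in mRNA, in footprints or in both. The 4 genes called in both lie near the line, and *Zfp280c* lies below 0 in footprints with almost no change in mRNA.

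For TE, no member passed the threshold with limma: 0 of 201 members were called higher and 0 lower, where all genes gave 0% and 0.0221%. At an unadjusted p under 0.05, 8 members were higher and 8 lower, 7.96% of the members against 7.85% of all genes. A DESeq2 interaction test on recovered reads with the clone as a block called 2 lower, *Zfp61* and *Zfp280c*. Limma with library weights called 9 higher and 13 lower. For both, the share of all genes called is not given here. The median TE change was 0.0038 for members and -0.0014 for all genes, and the groups did not overlap in 14 members with R98S above (6.97%) and 11 with R98S below (5.47%), beside 7.45% and 7.36% of all genes.

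*Zfp61*, a KRAB zinc finger gene, had a ratio of footprints to mRNA of 0.0668, 0.0516 and 0.101 in R98S clones 11, 13 and 35 and 0.138, 0.185 and 0.165 in WT clones 28, 29 and 36. The groups were apart, with a difference of -1.19 ± 0.28 (log2, SE, limma adjusted p = 0.562). *Zfp280c* had ratios of 0.0793, 0.0794 and 0.081 in R98S clones 11, 13 and 35 and 0.123, 0.139 and 0.143 in WT clones 28, 29 and 36, with the R98S clones nearly equal to each other and a difference of -0.75 ± 0.20 (log2, SE, limma adjusted p = 0.597). *Zfp764* had ratios of 0.221, 0.268 and 0.234 in R98S clones 11, 13 and 35 and 0.399, 0.279 and 0.42 in WT clones 28, 29 and 36, with WT clone 29 close to R98S clone 13, and a difference of -0.59 ± 0.21 (log2, SE, limma adjusted p = 0.629). In the other direction, *Zfp213* had ratios of 0.355, 0.304 and 0.297 in R98S clones 11, 13 and 35 and 0.178, 0.182 and 0.223 in WT clones 28, 29 and 36 and a difference of 0.70 ± 0.19 (log2, SE, limma adjusted p = 0.597). The differences were 0.59 ± 0.18 (log2, SE, limma adjusted p = 0.629) for *Zfp64* and 0.63 ± 0.22 (log2, SE, limma adjusted p = 0.629) for *Zfp362*, and in all 3 every R98S clone was above every WT clone. None of these 6 passed with limma. *Zfp61* and *Zfp280c* passed in the DESeq2 interaction (adjusted p = 0.0397 and 0.0935). With library weights in limma, *Zfp61*, *Zfp280c*, *Zfp213*, *Zfp64* and *Zfp362* passed (limma adjusted p = 0.00912 to 0.0459).

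In some places neighbouring members all differed in the same direction. Joining members up to 500 kb apart gave 12 clusters of 5 or more, which held 110 members, and in 4 clusters every tested member had the same sign in mRNA. In the cluster on chromosome 7 from *Zfp553* to *Zfp646* (127233061 to 127885996), 10 of 10 members had more mRNA and 10 of 10 more footprints in the R98S clones, with median changes of 0.79 and 0.48 (log2). It held 3 of the 7 members called higher in mRNA, *Zfp553*, *Zfp764* and *Zfp629*. The R98S mRNA values were all above the WT values in 7 of its members. Of all genes, 11.9% were apart in this way and 3.03% were called higher in mRNA. Of the other genes inside the same stretch, 18 of 19 had a higher mRNA mean in R98S clones, with a median of 0.45, and 3 were called. Per clone, the median member of this cluster deviated by 0.46, 0.48 and 0.063 in R98S clones 11, 13 and 35 and by -0.39, -0.45 and -0.29 in WT clones 28, 29 and 36.

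Genes on chromosome 7 that are no members also had a positive median. The 70 members there had a median mRNA change of 0.25, and the 782 other genes tested there one of 0.19. Called higher were 4 members (5.71%) and 6.39% of the others, beside 3.03% of all genes. The 191 members on other chromosomes had a median of 0.088, with 3 called higher (1.57%). With the median of each chromosome removed from every library, 4 members were called higher and 2 lower in mRNA, and 3 and 0 in footprints; *Zfp629*, *Zfp764*, *Zfp553* and *Zfp446* were no longer called in mRNA, while *Zfp518b*, *Zfp207* and *Zfp560* were. In footprints *Zfp207*, *Zfp553*, *Zfp771*, *Zfp933*, *Zfp560* and *Zfp280c* were no longer called (limma adjusted p = 0.105 to 0.173). The part of the chromosome in the result was not tested.

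In the cluster on chromosome 13 from *Zfp712* to *Zfp273* (67038596 to 67827002), all 17 genes have a KRAB pattern and all 17 had a higher mRNA mean in R98S clones, by a median of 0.52 (from 0.056 to 0.99), but 0 passed with limma, edgeR or DESeq2 (1, 2 and 3 at an unadjusted p under 0.05). The clones did not split by genotype. The median member deviated by 0.33, 0.46 and -0.14 in R98S clones 11, 13 and 35 and by -0.40, -0.0021 and -0.31 in WT clones 28, 29 and 36. All R98S values lay above all WT values in 4 of the 17, beside 11.9% of all genes. The median share of unique coding windows in this cluster was 70.7%. The other 5 genes tested inside it had a median of 0.64, whereas the 380 genes of chromosome 13 that are no members had one of -0.11. That median of 0.64 is the value of *Zfp457*, itself a Zfp gene, which had values in mRNA alone. The other genes are thus not all outside the family.

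In the opposite direction, the cluster on chromosome 9 from *Zfp560* to *Zfp846* (20345136 to 20605409) had 5 members, all with a KRAB pattern and all with a lower mRNA mean in the R98S clones, with changes of -1.41 to -0.19. Its median was -0.45 in mRNA and -0.62 in footprints, and only *Zfp560* passed with limma. No gene other than the members was tested inside it. The remaining cluster with 1 sign, from *Zfp551* to *Zfp446* on chromosome 7, had 7 of 7 members with a higher mRNA mean in R98S clones. Its median was 0.42. Only 2 other genes were tested inside it, with a median of 0.32, and 1 of them had a higher mean in R98S clones.

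**Figure D5:**
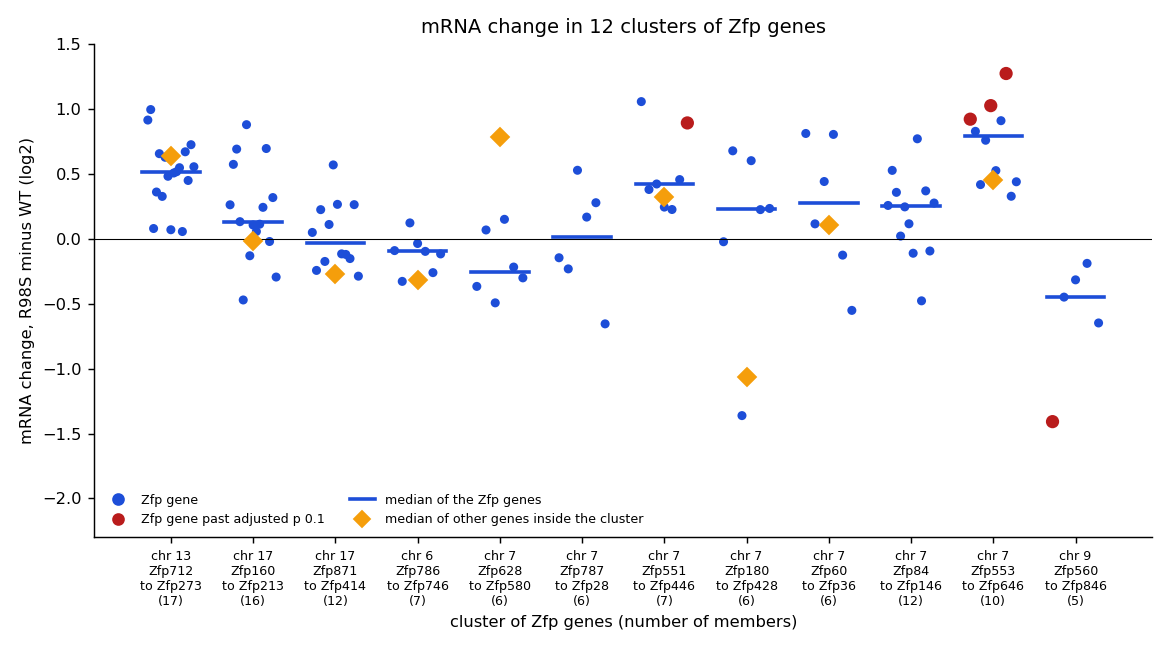
Change in mRNA (log2, R98S minus WT) of each Zfp gene in 12 clusters, labelled by chromosome and by first and last member; bars are cluster medians, diamonds medians of the other tested genes inside the cluster, and red points genes past an adjusted p of 0.1. The clusters from *Zfp553* to *Zfp646*, from *Zfp712* to *Zfp273* and from *Zfp551* to *Zfp446* lie wholly above 0 and that from *Zfp560* to *Zfp846* wholly below. The other genes include *Zfp* symbols with values in mRNA alone.

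By structure, the 143 tested members with a KRAB pattern had a median mRNA change of 0.22, with 102 higher in R98S clones, and 1 was called higher and 1 lower. The 96 with 3 or more fingers and no KRAB pattern had a median of 0.068, with 5 called higher and 0 lower with limma and edgeR (1 lower at an unadjusted p under 0.05 in each; DESeq2 called 1). The 22 with fewer than 3 fingers had a median of -0.029, with *Zfp207* alone called. Called higher were thus 0.699%, 5.21% and 4.55% of the 3 classes, beside 3.03% of all genes, and called lower 0.699%, 0% and 0%, beside 3.91%. The difference between these classes was not tested. Of the 13 members called in either assay, 4 had a KRAB pattern.

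Members with a known role were taken as a list of 32 genes, of which 29 were in both tables; *Zfp57*, which protects imprints, was at 0 in every mRNA library, and *Zfp462* had at most 0.86 normalized counts. With limma, only *Zfp207* passed in mRNA and only *Zfp207* and *Zfp592* in footprints, all of them higher in R98S clones. Of all genes, 3.03% were called higher and 3.91% lower in mRNA, and 3.13% and 4.62% in footprints. Whether the list differs from all genes was not tested. Among the CCCH proteins of mRNA decay, mRNA of *Zfp36* read 188, 169 and 309 in the R98S clones and 395, 199.6 and 394 in the WT clones, with WT clone 29 at the level of the R98S clones, and a difference of -0.55 ± 0.34 (log2, SE, limma adjusted p = 0.441). *Zfp36l1* read 419, 441 and 440.2 in the R98S clones and 405, 275 and 436 in the WT clones, a difference of 0.25 ± 0.23 (log2, SE, limma adjusted p = 0.62). For *Zfp622*, a factor of late 60S subunit maturation, mRNA read 1242, 1274 and 1449 in the R98S clones and 1351, 1428 and 1307 in the WT clones, a difference of -0.045 ± 0.16 (log2, SE, limma adjusted p = 0.921), and footprints differed by -0.11 ± 0.21 (log2, SE, limma adjusted p = 0.808).

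Among DNA-binding members, mRNA of *Zfp143*, an activator bound at many promoters, read 435, 547 and 360.2 in the R98S clones and 322, 254 and 264 in the WT clones. The groups were apart, but the difference of 0.66 ± 0.23 (log2, SE, limma adjusted p = 0.157) did not pass with limma, and its footprints differed by 0.16 (limma adjusted p = 0.745). *Zfp410*, an activator of *Chd4*, differed by 0.067 ± 0.23 (log2, SE, limma adjusted p = 0.919) and *Zfp384*, a fusion partner in leukemia, by -0.27 ± 0.22 (log2, SE, limma adjusted p = 0.578). *Zfp217*, a partner of corepressors, had almost the same mRNA value in every clone, with 1781, 1769 and 1774 in the R98S clones and 1788, 1788 and 1747 in the WT clones. Its difference was 0.00047 ± 0.15 (log2, SE, limma adjusted p = 0.999).

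Of the KRAB zinc finger genes with a known target, mRNA of *Zfp445*, which guards imprinted loci, read 2086, 2494 and 2092 in the R98S clones and 1273, 2036 and 1842 in the WT clones, with the groups just apart and a difference of 0.40 ± 0.21 (log2, SE, limma adjusted p = 0.362). *Zfp568*, a silencer at *Igf2*, differed by -0.11 ± 0.24 (log2, SE, limma adjusted p = 0.857). *Zfp809*, which silences murine leukemia virus in stem cells, read 500.1, 599 and 716 in the R98S clones and 446, 657 and 604 in the WT clones and differed by 0.093 ± 0.22 (log2, SE, limma adjusted p = 0.877). The groups overlapped in *Zfp568* and *Zfp809*. The remaining 16 members of the list ranged from -0.39 (*Zfp91*) to 0.37 (*Zfp260*) in mRNA.

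Those members include other RNA-binding proteins. The mRNA differences (log2, SE) were 0.03 ± 0.24 for *Zfp106*, an RNA-binding protein of motor neurons and muscle, -0.19 ± 0.17 for *Zfp326*, a subunit of a complex that couples transcription to splicing, 0.046 ± 0.24 for *Zfp346*, which binds double-stranded RNA, and 0.36 ± 0.20 for *Zfp830*, a factor tied to splicing. In chromatin factors they were -0.14 ± 0.24 for *Zfp687*, which shares a complex with Zfp592, -0.095 ± 0.22 for *Zfp644*, a G9a partner, 0.28 ± 0.32 for *Zfp609*, a partner of the cohesin loader, and 0.27 ± 0.24 for *Zfp335*, a cofactor in T-cell maturation. None passed with limma, and their limma adjusted p lay between 0.399 and 0.965 over the 16 genes.

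KRAB zinc finger proteins act through partners, and 23 genes of that machinery were all measured in both assays. In mRNA, 0 were called higher and 0 lower with limma and with edgeR (1 at an unadjusted p under 0.05 in each), DESeq2 called 1 lower, and the median change was 0.0084. In footprints, limma called 2 higher and 1 lower (8.7% and 4.35% of the 23, beside 3.13% and 4.62% of all genes), edgeR 2 and 2, and DESeq2 3 and 2. *Trim28*, the corepressor that KRAB boxes bind, had 5128 ± 237 normalized mRNA counts on average over R98S clones and 4947 ± 593 in WT clones (SD, n = 3), and its footprints differed by 0.084 ± 0.17 (log2, SE, limma adjusted p = 0.813). *Setdb1*, the methyltransferase it recruits, fell in footprints by 0.80 ± 0.24 (log2, SE, limma adjusted p = 0.0979) and differed in mRNA by -0.36 ± 0.19 (log2, SE, limma adjusted p = 0.359). *Mta1* and *Mbd3*, subunits of the NuRD deacetylase complex, rose in footprints by 0.89 ± 0.20 (log2, SE, limma adjusted p = 0.0397) and 0.80 ± 0.18 (log2, SE, limma adjusted p = 0.0376), with mRNA differences of 0.12 and -0.23 (limma adjusted p = 0.771 and 0.629). In TE, *Setdb1*, *Mta1* and *Mbd3* did not pass (limma adjusted p = 0.635, 0.629 and 0.59). Fits without single clones are not given here for these genes.

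The other C2H2 families, also chosen by symbol, gave a comparison with the gene families nearest by name. Of 61 such genes, 2 were called higher and 0 lower in mRNA with limma (6 lower at an unadjusted p under 0.05; edgeR called 1 and DESeq2 2), and 2 higher and 1 lower in footprints. These limma counts are 3.33% and 0% in mRNA, beside 3.03% and 3.91% of all genes, and 3.45% and 1.72% in footprints, beside 3.13% and 4.62%. Their median mRNA change was 0.048 and 33 of 60 were higher in R98S clones, beside 0.13 and 172 of 262 for Zfp genes. Whether the families differ was not tested.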

How the data were processed

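Ribosome footprints and mRNA were measured in 6 clones (12 libraries). According to the methods and the labels, the authors trimmed reads with fastq-mcf, removed rRNA and tRNA reads with Bowtie2, aligned to mm10 with TopHat2 2.0.11 and kept mapping quality of at least 10; footprints were counted in coding sequence without the first 15 and last 5 codons, with 3 technical replicates merged, and mRNA over exons. The deposited values are a signal: gene counts that the authors divided by DESeq2 size factors, separately for each assay. Dividing by the step of 1 read gave whole reads (tolerance 0.01) for all values.

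limma 3.58.1 (R 4.3.3) with a trend was fitted to log2(value + 1) of all genes with a mean of at least 10, R98S minus WT, with Benjamini-Hochberg adjustment over all genes and a threshold of 0.1; a fold change on this scale understates that of low genes. TE was the log2 ratio within each clone, for genes at 10 or more in all 12 libraries. The clone number marks the same culture in both assays, and deviations from the group mean correlated within each clone (r = 0.22 to 0.68 across genes, each best with its own). TE level was divided by lengths from GENCODE. edgeR 4.0.16 and DESeq2 1.42.0 ran on recovered reads. The limma, edgeR and DESeq2 fits, with those of TE, were tested on simulated data. The fits with library weights or with chromosome medians removed, and the counts of fingers, KRAB patterns and unique windows, were not. Alternatives were pseudocounts 0.5 and 5, filters, library weights, removal of chromosome medians and leaving out each clone. The study's own translation test, Babel, was not run. C2H2 fingers and KRAB patterns were found by letter patterns in the annotated coding sequence, and 1 member, *Zfp607*, had no annotation. *Zfp638* was not analysed here. Named members were the 6 with the largest rise and fall past the threshold, or the 3 with the smallest p where fewer than 3 passed, the 4 highest and lowest in level and TE, and those with listed roles; *Zfp207* in footprints and *Zfp292* were added after their values were seen. Members and lists were chosen with earlier results of these data known.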

Additional observations from a re-analysis of the deposited data

How the results depend on the processing

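Counts of called members depended on the choice of test, while no named gene's change turned its direction under the alternatives run for it. Shares of all genes called are given only for the main limma fit, so whether calls over all genes moved likewise was not tested. With limma, 7 higher and 1 lower in mRNA and 7 higher and 2 lower in footprints were called. edgeR called 7 higher and 1 lower in mRNA and 9 higher and 2 lower in footprints. DESeq2 called 14 higher and 3 lower in mRNA and 11 higher and 4 lower in footprints. With library weights the counts were 54 higher and 14 lower in mRNA and 33 higher and 9 lower in footprints, and with chromosome medians removed 4 higher and 2 lower in mRNA and 3 higher and 0 lower in footprints. A mean of at least 50 left 1 lower in footprints. Leaving out 1 clone at a time gave 2 to 18 higher and 1 to 4 lower in mRNA and 1 to 15 higher and 0 to 4 lower in footprints. In TE, library weights called 9 higher and 13 lower; the other limma alternatives called 0. The median TE change of members, 0.0038, turned negative with the DESeq2 interaction (-0.02), library weights (-0.046) and pseudocount 5 (-0.016), and without R98S clone 11 (-0.0028), R98S clone 35 (-0.071) or WT clone 36 (-0.029). The cause of these shifts was not tested. With the clone pairing kept as a block, the DESeq2 interaction called 0 higher and 2 lower, and limma without the block called 0 and 0. The TE level of members in WT clones, -0.96 from the all-gene median, was -0.64 without division by lengths, which leaves out the exon and coding lengths by construction, and -0.89 to -0.997 without 1 WT clone. Called in all 14 alternatives were *Zfp518b* in both assays and *Zfp207* and *Zfp560* in mRNA.

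Depth limits the members in footprints: 23 of 263 fell under the filter, 62 had no TE test, and 70 had a footprinting library with fewer than 10 reads. With 3 clones a genotype, an exact permutation test of a single gene cannot go below p = 0.1. Clone and genotype cannot be told apart beyond the spread between these clones.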

Other observations

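A further 99 symbols of the same form, *Zfp598* left aside, had values in the mRNA table alone. Of these, 35 were at 0 in all 6 mRNA libraries, 42 were detected with a mean under 10, and 22 were tested. Their median change was 0.27 (log2), 15 of 22 had a higher mean in the R98S clones, 0 were called higher and 1 lower with limma, edgeR and DESeq2 alike (higher at an unadjusted p under 0.05: 1, 2 and 0). With limma, the 1 called lower is 4.55% of the 22, near the 3.91% of all genes, and 3.03% of all genes were called higher. The called gene was *Zfp608*, a paralog of *Zfp609*. It read 0.794, 2.46 and 0 normalized mRNA counts in R98S clones 11, 13 and 35 and 40.3, 9.07 and 35.3 in WT clones 28, 29 and 36 (limma adjusted p = 0.0292). The R98S values amount to a few reads at most, so no fold change is given.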
